A study of Mus musculus with 15 samples.

Results

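Mouse liver libraries titled LATS KO (6) were compared with libraries titled TdTomato (4). These 10 of the 15 bulk RNA-seq libraries of the series were chosen by their titles. The other 5, titled Yap OE (Yap overexpression), entered the filter on low counts, the scaling and the estimate of spread between libraries. Their levels are not compared here. The series concerns how inflammatory monocytes limit the cell division that YAP drives in the liver. For each library the labels give the organ and the group name, and TdTomato, the name of a red fluorescent reporter protein, stands for the control livers. They do not give the strain, age, sex, the allele of Lats1 or Lats2, the Cre driver or other agent, the cells it acted in, the time, or what the 2 groups share beyond the organ. The extraction text describes steatohepatitis mice with a hepatocyte Cyr61 deletion, which matches none of the titles. Whether each library stands for its own animal is not stated, and the p-values then reflect only how far the libraries of a group lie apart, which may be technical spread.

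LATS1 and LATS2 are the last kinases of the Hippo pathway. They phosphorylate the transcriptional coactivators YAP and TAZ, which are then held in the cytoplasm and degraded, and when the kinases are lost YAP and TAZ enter the nucleus and bind DNA through the TEAD factors. In the adult liver hepatocytes keep this pathway active, hold YAP activity low, and make most of the plasma proteins, bile acids, urea and much of the cholesterol of the body. Bile duct cells, in contrast, have high YAP activity.

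The 10 libraries held 6166680 to 27508698 reads assigned to genes. In TdTomato 1 and LATS KO 3, 78.5% and 89.9% of reads were unmapped, where the remaining 8 had 3.46% to 16.7%. Both also listed fewer genes above 0 (8501 and 9710, where no other library had under 13372). Results are therefore given for all 15 libraries of the series, and the text says which list counts and named calls differed in 8 libraries, the 10 compared without these 2. In the plots and the text, levels are CPM, read counts scaled to library size with TMM factors (trimmed mean of M values). CPM is not corrected for gene length, so levels are compared between libraries and not between genes.

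The libraries had the profile of liver, and marker sums of other cell types in the controls varied by type. Alb, which encodes albumin, was at 64297, 126760.0, 129270.0 and 91808 CPM in TdTomato 1 to 4, against 70488, 65283, 30360.0, 132810.0, 114580.0 and 135620.0 CPM in LATS KO 1 to 6. The summed level of 15 hepatocyte markers was 120040.0 to 204670.0 CPM in the controls and 106110.0, 90782, 46697, 196610.0, 181940.0 and 206220.0 CPM in LATS KO 1 to 6. Markers of monocytes summed to 1.75 to 18.4 CPM, of stellate cells and fibroblasts to 0.0774 to 12.8 CPM and of neutrophils to 0.166 to 8.13 CPM in the controls. The poorly mapped TdTomato 1 gave the highest sums for monocytes and neutrophils and the lowest for stellate cells and fibroblasts. In TdTomato 2 to 4 these 3 sums were 1.75 to 2.44, 0.166 to 1.51 and 1.68 to 12.8 CPM. Other lists summed to more in the controls. Kupffer cell markers summed to 399 to 631 CPM, B and plasma cell markers to 370 to 451 CPM. In the controls C1qa was at 0 to 1.72 CPM and Clec4f at 1.38 to 8.75 CPM. Other members thus made most of the Kupffer cell sum. Markers of red cells and precursors summed to 131 to 153 CPM. The 4 adult haemoglobin genes on the list were listed at 0 in all 10 libraries. The urea cycle gene Ass1, abundant in hepatocytes, was listed at 0 to 0.766 CPM, so a gene listed at 0 in these files need not be absent. In bulk tissue, fewer cells of a type and less RNA per cell cannot be told apart.

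Counts of the 2 kinase genes were a weak check of the labels. Without the 2 poorly mapped libraries Lats1 passed as lower when Yap OE was kept in the fit, but not in the 8 libraries. Lats2 did not pass. For Lats1 (mm10, chromosome 10, 7681214 to 7716460) TdTomato 1 to 4 had 0, 44.5, 46.0 and 28.7 CPM, against 14.5, 10.5, 0, 27.4, 18.1 and 22.3 CPM in LATS KO 1 to 6. Apart from the 0 in TdTomato 1, every control was above every LATS KO library. Its log2 fold change was −0.94 ± 1.00 (SE; adjusted p = 0.62, edgeR's quasi-likelihood test with Benjamini-Hochberg adjustment), −1.10 without TdTomato 1 and LATS KO 3 (adjusted p = 0.0248, 13 libraries) and −1.12 in the 8 libraries (adjusted p = 0.0632). For Lats2 (chromosome 14, 57689662 to 57758388) the controls had 0, 19.6, 19.1 and 17.4 CPM and the LATS KO libraries 29.2, 41.0, 7.67, 16.9, 17.3 and 14 CPM. LATS KO 1 and 2 thus lay above every control, and the difference did not pass the test (log2 fold change 0.58 ± 0.75, adjusted p = 0.695). A count over a whole gene can include exons outside a deleted part, so it does not check the deletion, and the libraries are called by their labels throughout. Of the 2 coactivators, Yap1 was lower in every LATS KO library (66.0 to 86.4 against 94.9 to 115 CPM) without passing the test (log2 fold change −0.41 ± 0.16, adjusted p = 0.11). Wwtr1, which encodes TAZ, rose by a log2 fold change of 1.95 ± 0.52 (adjusted p = 0.0275), with overlap. That call ended without 1 library (TdTomato 1, 2 or 4, LATS KO 2, adjusted p = 0.0594 to 0.0849) and in the 13 libraries (1.31, adjusted p = 0.0712) and the 8 libraries (1.31, adjusted p = 0.207).

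Of 13055 genes tested, 1311 were higher in LATS KO (10%) and 127 were lower (0.973%) at an adjusted p under 0.05. Without TdTomato 1 and LATS KO 3, the 13 other libraries gave 1816 of 13256 genes higher (13.7%) and 429 lower (3.24%). In the 8 libraries, 622 of 12280 genes were higher (5.07%) and 145 lower (1.18%), and 484 and 54 of these were also called in that direction over the 15 libraries. The list counts below are to be read beside these shares over all tested genes. All 6 LATS KO libraries lay above all 4 controls for 868 genes (6.65%) and below them for 248 (1.9%). The calls rest on a spread pooled with the Yap OE libraries: with only the 10 libraries compared, edgeR called 0 genes higher and 1 lower (0.00832%), Cebpe, with 2013 genes at an unadjusted p under 0.05. On the same 10 libraries, DESeq2 called 1262 higher (10.6%) and 147 lower (1.24%). Over the 15 libraries, DESeq2 called 19.6% of genes higher and 2.78% lower, and limma voom 16.2% and 10.7%. Single libraries moved these counts: 554, 704, 569 and 844 genes were higher without TdTomato 2, 3 or 4 or LATS KO 2. Of genes lower, 34, 61 and 56 were called without TdTomato 2, 3 or 4, 69 and 53 without LATS KO 1 or 2, and 83, 79 and 83 without Yap OE 1, 2 or 4.

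The genes called in the 2 directions had different control levels. The genes that rose were near 0 in the control livers, with a median control level of 0.141 CPM, and 150 of them had no control read. The genes that fell had a median control level of 72.3 CPM. Among 2529 tested genes below 1 CPM in the controls, 39.7% rose and 0 fell. A gene this low in the controls can pass the filter through LATS KO or Yap OE libraries in which it is higher, so these shares depend on the filter on low counts and are given as a description. The share over all tested genes is not matched to the control level of a list. Among 1518 genes between 100 and 1000 CPM, 0.856% rose and 2.83% fell, and the median log2 fold change was −0.37. The 144 genes at 1000 CPM or more held 0 rises and 4 falls with a median of −0.64. The median over all tested genes was 0.13 (log2), and 0.46 when libraries were scaled by total counts alone, so a small log2 fold change shifts with the scaling.

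**Figure D1:**
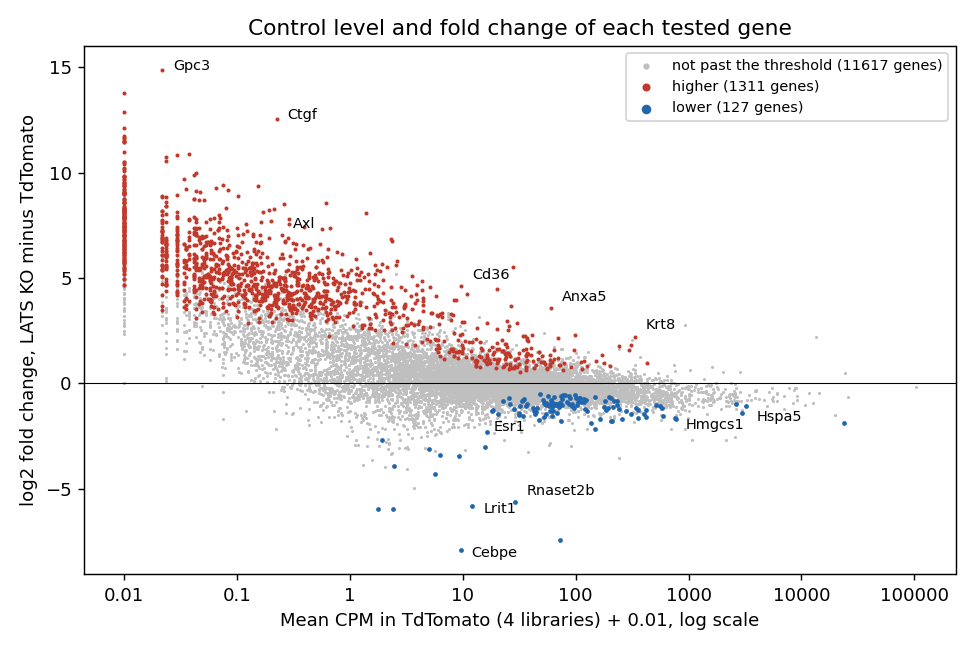
Each point is 1 tested gene: the x axis gives its mean level in the 4 TdTomato libraries (CPM + 0.01, log scale) and the y axis its log2 fold change. Red points (1311 genes higher) crowd at low control levels and blue points (127 genes lower) at high ones. The column of points at the left edge holds genes with no control read, whose fitted fold change is not a bound.

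Direct targets of YAP and TEAD rose, most in LATS KO 1 to 3. Of 20 tested genes on a list of such targets, 12 were higher and 0 lower, and 5 were higher in the 8 libraries. With 1 library left out the count was 7 to 14, fewest without TdTomato 4. Ctgf, a secreted matrix protein and standard readout of YAP, was at 0, 0.166, 0.556 and 0.144 CPM in TdTomato 1 to 4, against 1811, 2485, 3136, 82.7, 41.7 and 20.6 CPM in LATS KO 1 to 6. Every LATS KO library exceeded every control by a wide margin, and LATS KO 1 to 3 were the highest (log2 fold change 12.53 ± 1.85, adjusted p = 0.00319; 8 libraries 11.66, adjusted p = 0.0403). Axl, a receptor tyrosine kinase, had another order: 0, 0.276, 0.159 and 0.527 CPM in the controls and 10.2, 112, 4.78, 42.1, 25.3 and 14.2 CPM in LATS KO, highest in LATS KO 2 and 4 (log2 fold change 7.05 ± 1.03, adjusted p = 0.00319). Crim1, a membrane protein that binds growth factors, was at 12.2 to 14.9 CPM in the controls and 18.3 to 192 CPM in LATS KO, without overlap (log2 fold change 2.60 ± 0.56, adjusted p = 0.011). Ankrd1, a nuclear and sarcomeric ankyrin repeat protein, had 1 read in all controls and 36.6, 50.3, 129.9, 2.63, 1.08 and 0.841 CPM in LATS KO 1 to 6. Without 1 library the log2 fold change of Ctgf was 13.39 (TdTomato 3) and that of Axl 7.77 (TdTomato 4) and 6.21 (LATS KO 2). Crim1 and Ankrd1 did not pass in the 8 libraries (adjusted p = 0.0949 and 0.0567).

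TEAD factors recognise the core GGAATG, read CATTCC on the other strand. In RefSeq promoters (GRCm38.p6, the same assembly as mm10; 250 bases before to 50 after the start site), 12.52% of 12742 promoters of tested genes held this core on either strand. The share was 15.04% of 1277 promoters of the genes that rose, 7.91% of 139 of the genes that fell, and 6 of the 10 matched promoters of the YAP-TEAD targets that rose. Over all tested members of that list, risen or not, 7 of 14 promoters held the core. The list was made of known targets, so its share was in part set in advance. Shown are the promoters of 4 targets that rose, picked for most matches and then smallest adjusted p, with each match in capitals. No promoter entry was found for Ctgf. A match describes these letters only and is not a shown binding site.
Ankrd1, chr19:36119795-36120094, minus strand: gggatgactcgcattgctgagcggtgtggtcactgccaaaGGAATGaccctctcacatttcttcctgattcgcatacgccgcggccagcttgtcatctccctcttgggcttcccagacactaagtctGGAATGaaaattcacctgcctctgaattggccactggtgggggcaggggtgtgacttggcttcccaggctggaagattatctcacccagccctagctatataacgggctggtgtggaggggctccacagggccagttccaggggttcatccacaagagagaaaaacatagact
Axl, chr7:25788684-25788983, minus strand: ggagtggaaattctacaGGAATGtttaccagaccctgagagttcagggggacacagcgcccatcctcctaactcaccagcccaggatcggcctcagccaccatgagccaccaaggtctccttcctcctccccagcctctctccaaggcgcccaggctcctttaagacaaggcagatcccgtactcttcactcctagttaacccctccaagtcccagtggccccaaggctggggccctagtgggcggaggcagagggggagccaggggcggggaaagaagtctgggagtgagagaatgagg
Crim1, chr17:78199998-78200297, plus strand: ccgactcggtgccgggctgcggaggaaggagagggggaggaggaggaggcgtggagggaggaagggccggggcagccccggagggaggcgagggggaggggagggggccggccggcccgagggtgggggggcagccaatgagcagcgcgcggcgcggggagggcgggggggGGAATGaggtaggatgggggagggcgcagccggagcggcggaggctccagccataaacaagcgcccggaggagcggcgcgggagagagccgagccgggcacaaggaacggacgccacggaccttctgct
Amotl2, chr9:102717554-102717853, plus strand: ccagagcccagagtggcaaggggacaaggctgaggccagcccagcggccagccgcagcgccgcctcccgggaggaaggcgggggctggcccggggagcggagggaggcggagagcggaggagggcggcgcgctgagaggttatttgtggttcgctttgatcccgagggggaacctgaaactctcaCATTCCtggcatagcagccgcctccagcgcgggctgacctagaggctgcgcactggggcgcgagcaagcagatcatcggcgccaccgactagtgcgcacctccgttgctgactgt
Of these 4 promoters that of Ankrd1 holds 2 matches, which begin 210 and 123 bases before the start site. The single matches begin 233 bases before the start in Axl, 79 in Crim1 and 65 in Amotl2, where it lies on the opposite strand. Amotl2, a scaffold that binds YAP, was at 17.2, 34.3, 29.3 and 26.3 CPM in the controls, against 641, 683, 583, 56.1, 49.8 and 32.9 CPM in LATS KO 1 to 6. LATS KO 6 overlapped the controls, and the call (log2 fold change 3.67 ± 0.85, adjusted p = 0.0144) ended without 1 library (TdTomato 4, adjusted p = 0.0511). Amotl2 did not pass in the 8 libraries (adjusted p = 0.136).

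**Figure D2:**
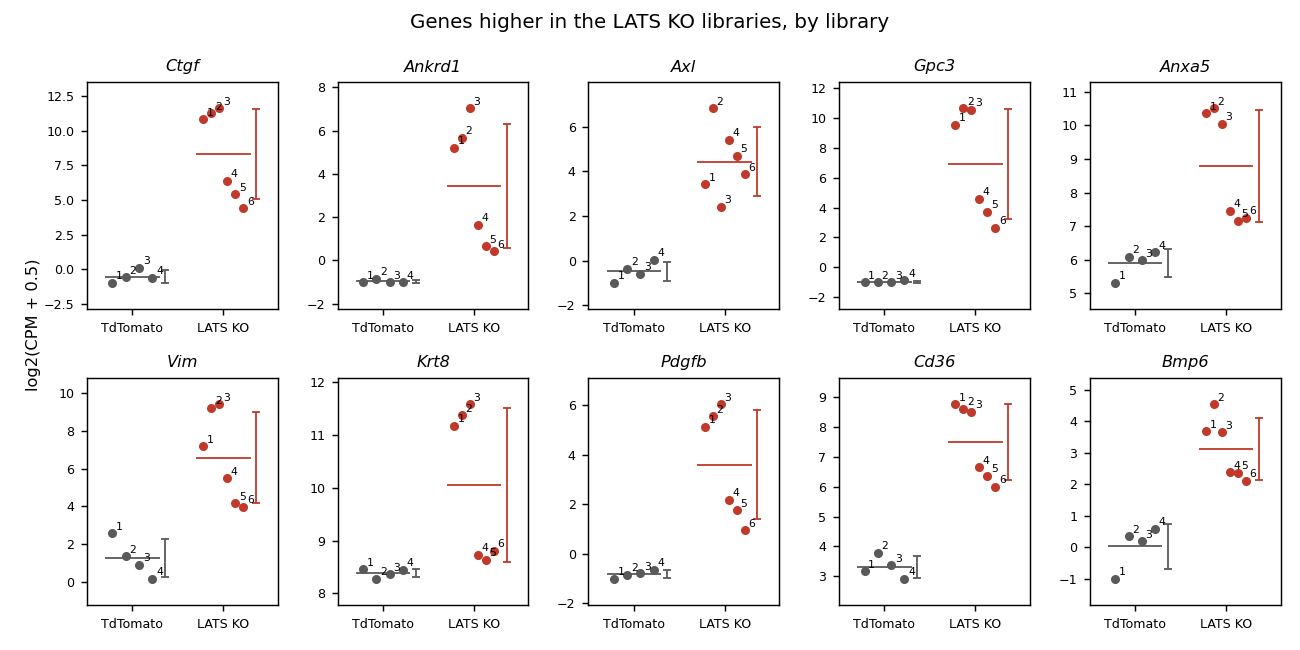
Levels as log2(CPM + 0.5) of 10 genes that rose, with 1 numbered point per library (grey TdTomato 1 to 4, red LATS KO 1 to 6), a line at the group mean and a bar of 1 SD. In every panel but that of Axl, LATS KO 1 to 3 all lie above LATS KO 4 to 6, and the red points lie above the grey ones in every panel.

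The largest rises were in genes nearly silent in the control livers. Gpc3, a cell surface proteoglycan of fetal liver and liver tumours, had 1 read in all controls and stood at 737, 1557, 1457, 23.5, 12.5 and 5.71 CPM in LATS KO 1 to 6 (adjusted p = 0.0035, edgeR). Emp1, a membrane protein of epithelia, had no control read and 93.5, 207, 187, 6.14, 1.48 and 1.20 CPM in LATS KO. That is at least 1943-fold higher, counting 3 reads over the control group as the limit of detection (adjusted p = 0.00898). Slc25a24, a mitochondrial carrier of adenine nucleotides, had a ratio of pooled CPM of 2219 (95% exact interval 614 to 18324). Tead4, a TEAD factor, had no control read and was at least 211-fold higher. Bex1, Glipr2, Usp43 and Ptgfr, the receptor for prostaglandin F, also had no control read and were at least 361-fold, 357-fold, 295-fold and 243-fold higher. In each of these 8 genes LATS KO 1 to 3 were above LATS KO 4 to 6, and the intervals and bounds cover counting error only. Single libraries moved several of these values. Without LATS KO 2 the bounds were 944-fold for Emp1, 128-fold for Tead4 and 225-fold for Bex1. Without LATS KO 2 the ratio was 1389 for Slc25a24, and without TdTomato 2, which held its control reads, this gene was at least 1064-fold higher. Of the 8 genes, Gpc3 passed in the 8 libraries (adjusted p = 0.0446), and Emp1, Slc25a24, Tead4, Bex1, Glipr2, Usp43 and Ptgfr did not (adjusted p = 0.0962, 0.0646, 0.0962, 0.119, 0.117, 0.104 and 0.103).

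All 24 tested genes of a mitosis list were higher, and 17 were in the 8 libraries. Kif23, a kinesin of the dividing cell's midbody, was at 0, 0.221, 0.159 and 0.192 CPM in TdTomato and 14.4, 36.4, 6.67, 7.23, 4.45 and 2.16 CPM in LATS KO (log2 fold change 6.27 ± 1.04, adjusted p = 0.00475; 5.51 without LATS KO 2), without overlap. Of 18 genes for G1 cyclins, their kinases and inhibitors, 5 rose and 0 fell (3 higher in the 8 libraries; with 1 library left out 1 to 6, fewest without TdTomato 3). Ccnd1, cyclin D1, was at 13.7, 39.3, 31.9 and 13.5 CPM in TdTomato 1 to 4, against 334, 304, 280.4, 82.6, 88.5 and 50.8 CPM in LATS KO 1 to 6, so the lowest LATS KO library was above the highest control (log2 fold change 2.95 ± 0.57, adjusted p = 0.00721). Cdk4, its kinase, rose by 0.90 ± 0.22 (adjusted p = 0.0176). The CDK inhibitors Cdkn1a (p21, 3.21 ± 0.89, adjusted p = 0.0319) and Cdkn2c (p18, 1.69 ± 0.47, adjusted p = 0.0304) rose as well, each with overlap. Of 24 genes of DNA replication 12 rose and 0 fell (with 1 library left out 5 to 14, fewest without TdTomato 2 or TdTomato 4). In the 8 libraries 1 was higher, near the share of all genes tested there (5.07%). In the 8 libraries Ccnd1 (2.61, adjusted p = 0.0758), Cdk4 (adjusted p = 0.112) and Cdkn1a (adjusted p = 0.207) did not pass. The call of Cdk4 ended without 1 library (TdTomato 3, adjusted p = 0.0572), and so did those of Cdkn1a (TdTomato 1, 2, 3 or 4, LATS KO 1 or 2, adjusted p = 0.0629 to 0.094) and Cdkn2c (TdTomato 2, 3 or 4, LATS KO 2, adjusted p = 0.0711 to 0.0971).

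Among 20 targets of p53, the transcription factor of the DNA damage response, 6 rose and 0 fell, with a median log2 fold change of 0.54 (3 higher in the 8 libraries; with 1 library left out 3 to 8, fewest without TdTomato 3 or TdTomato 4). Phlda3, an inhibitor of AKT, was at 0, 0.166, 0.159 and 0.0479 CPM in the controls, against 15.9, 19.2, 39.1, 2.67, 1.15 and 1.20 CPM in LATS KO (log2 fold change 7.05 ± 1.21, adjusted p = 0.00525). Pmaip1, which encodes the pro-death protein NOXA, was at 0.866, 3.65, 0.444, 1.36, 1.55 and 0.361 CPM in LATS KO and had 1 read in all controls (adjusted p = 0.00692). Mdm2 and Ccng1, 2 widely used p53 targets, had log2 fold changes of 0.42 ± 0.30 and 0.56 ± 0.23 and did not pass (adjusted p = 0.427 and 0.138). Immediate early and AP-1 factors rose in 5 of 18 members (with 1 library left out 1 to 7, fewest without TdTomato 2 or TdTomato 4). In the 8 libraries 1 rose, near the share of all genes tested there (5.07%). Ier3, a stress-induced early gene, was at 0, 0, 0.159 and 0.287 CPM in the controls and 37.6, 41.4, 54.9, 3.42, 1.01 and 1.14 CPM in LATS KO (log2 fold change 7.55 ± 1.43, adjusted p = 0.00702), while Fos (1.64 ± 0.60) and Jun (0.42 ± 0.51) did not pass (adjusted p = 0.0948 and 0.672). Without LATS KO 3 the log2 fold change of Phlda3 was 6.35, and that of Ier3 without TdTomato 4 was 8.76. Ier3 did not pass in the 8 libraries (adjusted p = 0.0702).

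Genes of the cytoskeleton and of membrane scaffolds rose. Of 34 tested genes of the actin and tubulin cytoskeleton, 15 were higher and 0 lower (4 higher in the 8 libraries), with a median log2 fold change of 1.43. With 1 library left out the count was 8 to 21, fewest without TdTomato 4. Marcksl1 and Marcks, which link actin to the membrane, rose by 4.40 ± 0.62 (adjusted p = 0.00299) and 5.23 ± 0.77 (adjusted p = 0.00319). Marcks was at 4.71, 38.1, 8.89, 20.038, 15.1 and 15.021 CPM in LATS KO 1 to 6 against 0 to 0.718 CPM in the controls, lowest in LATS KO 1 and 3. Vim, vimentin, the intermediate filament of mesenchymal cells, was at 5.42, 2.04, 1.35 and 0.622 CPM in the controls and 145, 598, 678, 44.1, 17.3 and 15.3 CPM in LATS KO (log2 fold change 6.74 ± 1.26, adjusted p = 0.00646). Tagln2, an actin binding protein, was at 3.42 to 8.05 CPM in the controls and 12.9 to 301 CPM in LATS KO (4.55 ± 0.88, adjusted p = 0.00721). Actb and Actg1, the cytoplasmic actins, had log2 fold changes of 0.87 ± 0.34 and 1.01 ± 0.33 and did not pass (adjusted p = 0.117 and 0.061). The log2 fold change of Vim was 7.54 without TdTomato 1 and 6.14 without LATS KO 3. Tagln2 did not pass in the 8 libraries (adjusted p = 0.0684). These genes are expressed in other cell types too. Of 15 markers of stellate cells and fibroblasts 2 rose, of 9 of bile duct cells 6 and of 8 of monocytes 7 (1, 0 and 5 in the 8 libraries), and the sums in LATS KO 1 to 6 were 16.3, 78.5, 34.9, 27.1, 9.51 and 19.9 CPM for the first and 20.7, 186, 69.5, 28.9, 18.5 and 12.6 CPM for the last. The part of those cells in the result was not tested.

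Annexins, calcium-dependent membrane binding proteins, and S100 proteins rose in 7 of 19 members, where 10% of all tested genes did. Among tested genes below 1 CPM in the controls 39.7% rose, and Anxa2, Anxa3 and S100a11 were of this class. In the 8 libraries 1 of the annexins and S100 proteins rose, near the share of all genes tested there (5.07%). Anxa5 had the highest control level of those that rose: 39.3, 67.9, 63.0 and 74.4 CPM in TdTomato 1 to 4, against 1312, 1454, 1066, 176, 143 and 151 CPM in LATS KO 1 to 6. The groups did not overlap and LATS KO 1 to 3 were the highest (log2 fold change 3.55 ± 0.71, adjusted p = 0.00818; 8 libraries 3.24, adjusted p = 0.0929). Anxa2 rose by 8.56 ± 1.52 (adjusted p = 0.00549), Anxa3 by 8.13 ± 1.33 (adjusted p = 0.00475) and S100a11 by 7.34 ± 1.47 (adjusted p = 0.00818). Without LATS KO 3 the log2 fold change of Anxa3 was 7.52. Anxa2 and S100a11 did not pass in the 8 libraries (adjusted p = 0.055 and 0.0813).

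Among 22 integrins and laminins, 5 rose and 0 fell, with 3 to 8 higher when 1 library was left out (3 without any 1 of the 4 controls or LATS KO 1 or 2, among others) and 1 in the 8 libraries. The count in the 8 libraries was near the share of all genes tested there (5.07%). Lamb2, a laminin chain of basement membranes, was at 0.155, 1.16, 0.635 and 0.192 CPM in the controls and 67.2, 119, 116, 10.7, 3.44 and 2.16 CPM in LATS KO (log2 fold change 6.61 ± 1.22, adjusted p = 0.00623; 7.37 without TdTomato 2). Lama5, another chain, rose by 6.41 ± 1.37 (adjusted p = 0.011). Of 18 epithelial keratin and junction genes, 5 rose and 0 did in the 8 libraries (with 1 library left out 0 to 5, fewest without TdTomato 2 or TdTomato 3). The keratin pair of hepatocytes showed the order of libraries at high counts: Krt8 was at 351, 309.9, 328 and 347 CPM in TdTomato and 2310.2, 2650.2, 3057, 423, 396 and 447 CPM in LATS KO. LATS KO 1 to 3 were the highest libraries and LATS KO 4 to 6 lay close to the controls (log2 fold change 2.21 ± 0.60, adjusted p = 0.0292). Krt18 was at 1472, 1635, 2302, 368, 347 and 399.5 CPM in LATS KO against 279 to 385 CPM (1.80 ± 0.53, adjusted p = 0.0412). Both calls ended without 1 library (Krt8 TdTomato 1, 2, 3 or 4, LATS KO 1 or 2, adjusted p = 0.0549 to 0.0845; Krt18 TdTomato 1, 2, 3 or 4, LATS KO 1, 2 or 3, Yap OE 1, 2, 3, 4 or 5, adjusted p = 0.053 to 0.106). Lamb2, Lama5, Krt8 and Krt18 did not pass in the 8 libraries (adjusted p = 0.0713, 0.0994, 0.182 and 0.185). Markers of bile duct cells summed to 58.4 to 72.4 CPM in the controls and to 4604, 2099, 1626, 236, 120.0 and 156 CPM in LATS KO 1 to 6, and their part in these rises was not tested.

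Of 29 growth factor ligands and receptors, 6 were higher and 0 lower (3 higher in the 8 libraries; with 1 library left out 4 to 8, fewest without TdTomato 2, TdTomato 3 or TdTomato 4). Pdgfb, a ligand for stellate cells and pericytes, was at 0, 0.0552, 0.0794 and 0.144 CPM in TdTomato 1 to 4, against 34.5, 46.4, 65.4, 4.03, 2.90 and 1.44 CPM in LATS KO 1 to 6 (log2 fold change 8.31 ± 1.30, adjusted p = 0.00372). Erbb2, a receptor of the EGF family, had a pooled CPM ratio of 324 (95% exact interval 57.9 to 12815). Tgfb2, a TGF-beta ligand, had one of 321 (95% exact interval 109.5 to 1557), with 32.7, 25.7, 26.6, 0.526, 0.135 and 0.661 CPM in LATS KO. Egfr, the receptor of the family that hepatocytes express most, had a log2 fold change of 0.36 ± 0.33, and Met, the HGF receptor, of −0.14 ± 0.27, and neither passed (adjusted p = 0.562 and 0.802). LATS KO 5 lay inside the control range of Tgfb2. It did not pass in the 8 libraries (adjusted p = 0.109). Without TdTomato 3, which held its control read, Erbb2 was at least 86.9-fold higher, and without TdTomato 4 the log2 fold change of Pdgfb was 8.96.

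The Notch pathway, which sets bile duct fate, had 6 of 18 members higher and 1 lower (3 and 0 in the 8 libraries; higher with 1 library left out 2 to 7, fewest without TdTomato 3). Jag1, a Notch ligand, was at 0, 2.54, 2.07 and 3.83 CPM in the controls and 188, 223, 159.9, 16.048, 3.10 and 2.82 CPM in LATS KO 1 to 6, with LATS KO 5 and 6 inside the control range (log2 fold change 5.52 ± 1.32, adjusted p = 0.0165). Lfng, a glycosyltransferase that modifies Notch, was at 1.73, 11.2, 1.00, 7.76, 6.20 and 1.86 CPM in LATS KO against 0 to 0.239 CPM, lowest in LATS KO 1, 3 and 6 (5.56 ± 0.99, adjusted p = 0.00549; 6.60 without TdTomato 4). Hes6, a member of the Hes family, fell: it was at 340.4, 196, 123 and 186 CPM in TdTomato 1 to 4, against 20.1, 20.8, 18.3, 70.9, 99.4 and 136 CPM in LATS KO 1 to 6. LATS KO 6 overlapped the controls (−1.80 ± 0.51, adjusted p = 0.0361; 8 libraries −1.32, adjusted p = 0.216). Single libraries decided the calls of Jag1 (TdTomato 2 or 3, adjusted p = 0.0528 to 0.0552) and Hes6 (TdTomato 1, 2 or 4, LATS KO 1, 2 or 4, Yap OE 2, 3 or 4, adjusted p = 0.0503 to 0.101). Jag1 did not pass in the 8 libraries (adjusted p = 0.12).

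Cholesterol synthesis enzymes fell. All 20 tested enzymes of the pathway from acetyl-CoA to cholesterol had a negative log2 fold change, 10 passed the test, 9 passed it in the 13 libraries and 3 in the 8 libraries. With 1 library left out, the count was 4 to 14, fewest without TdTomato 2 or TdTomato 4. The median was −1.05 against 0.13 over all tested genes. Hmgcs1, which makes HMG-CoA, was at 767, 825, 576 and 842 CPM in TdTomato 1 to 4, against 207, 149, 225, 177, 262 and 410.0 CPM in LATS KO 1 to 6. The lowest control was above the highest LATS KO library, and LATS KO 4 to 6 were not set apart from LATS KO 1 to 3 (log2 fold change −1.66 ± 0.31, adjusted p = 0.00671; 8 libraries −1.67, adjusted p = 0.0354). Idi1, isopentenyl diphosphate isomerase, was at 108, 146, 99.4 and 189.7 CPM in the controls and 30.9, 12.3, 26.6, 37.6, 60.0 and 55.5 CPM in LATS KO (−1.87 ± 0.37, adjusted p = 0.00818; 8 libraries −1.93, adjusted p = 0.0432). Sqle, squalene epoxidase, was at 200.3, 232, 188 and 303 and 105.410, 117, 90.5, 70.9, 132 and 154 CPM, lowest in LATS KO 4 and without overlap (−1.05 ± 0.24, adjusted p = 0.0131; 8 libraries adjusted p = 0.0532).

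Further down the pathway, Fdft1, squalene synthase, was at 381, 251, 203 and 274 CPM in the controls and 64.8, 71.8, 88.3, 101, 146 and 194 CPM in LATS KO, again without overlap (−1.32 ± 0.30, adjusted p = 0.013). Mvd (−1.46 ± 0.33, adjusted p = 0.0133), Cyp51 (−1.47 ± 0.39, adjusted p = 0.0272) and Lss, lanosterol synthase (−0.89 ± 0.24, adjusted p = 0.0285), fell with overlap. Msmo1, Fdps and Mvk were the other 3 that passed (adjusted p = 0.0405, 0.0474 and 0.0499). Around the pathway, Insig2, which holds the sterol sensor in the endoplasmic reticulum, fell as well (−1.24 ± 0.32, adjusted p = 0.0212). Srebf2, the transcription factor that drives the pathway, had a log2 fold change of −0.24 ± 0.29 and did not pass (adjusted p = 0.658). Single libraries decided the calls of Sqle (TdTomato 4, adjusted p = 0.0549), Mvd (TdTomato 2, adjusted p = 0.06), Cyp51 (TdTomato 1, 2 or 4, LATS KO 1 or 2, adjusted p = 0.0544 to 0.0896), Lss (TdTomato 2, 3 or 4, LATS KO 1, 2 or 4, adjusted p = 0.0511 to 0.108) and Insig2 (TdTomato 2 or 3, adjusted p = 0.0556 to 0.064), of the other named falls here those of Msmo1 (TdTomato 1, 2 or 4, LATS KO 1, 2, 3 or 4, Yap OE 1, 2 or 3, adjusted p = 0.0537 to 0.107), Fdps (TdTomato 1, 2, 3 or 4, LATS KO 1, 2, 3 or 4, Yap OE 1, 2 or 3, adjusted p = 0.0603 to 0.117) and Mvk (TdTomato 1, 2 or 4, LATS KO 1, 2, 3 or 4, Yap OE 1, 2, 3, 4 or 5, adjusted p = 0.0562 to 0.167), and not those of Hmgcs1, Idi1 and Fdft1. Fdft1, Mvd, Cyp51, Msmo1, Fdps, Mvk and Insig2 did not pass in the 8 libraries (adjusted p = 0.0987, 0.0798, 0.126, 0.2, 0.156, 0.103 and 0.089).

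The sterol response factor SREBP2 binds elements that hold CACCCCAC. Of 18 promoters of 15 tested cholesterol synthesis genes 2 held these letters on either strand (11.11%), against 3.23% of 12742 promoters of tested genes and 8.63% of 139 promoters of genes that fell. Of the 7 matched promoters of enzymes that passed the threshold, 1 held these letters (14.29%), that of Hmgcs1. Those of Cyp51, Idi1, Lss, Msmo1, Mvd and Mvk held 0. Only these exact letters were searched, so a match is not a shown binding site and a miss does not show that one is absent. The promoter of Hmgcs1 is shown for its match, in capitals, which begins 136 bases before the start site.
Hmgcs1, chr13:119690101-119690400, plus strand: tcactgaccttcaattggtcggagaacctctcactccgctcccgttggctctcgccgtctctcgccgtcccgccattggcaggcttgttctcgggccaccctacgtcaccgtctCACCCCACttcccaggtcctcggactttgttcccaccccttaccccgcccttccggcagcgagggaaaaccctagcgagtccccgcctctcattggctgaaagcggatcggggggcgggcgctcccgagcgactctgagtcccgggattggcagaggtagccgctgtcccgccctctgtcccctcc

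**Figure D3:**
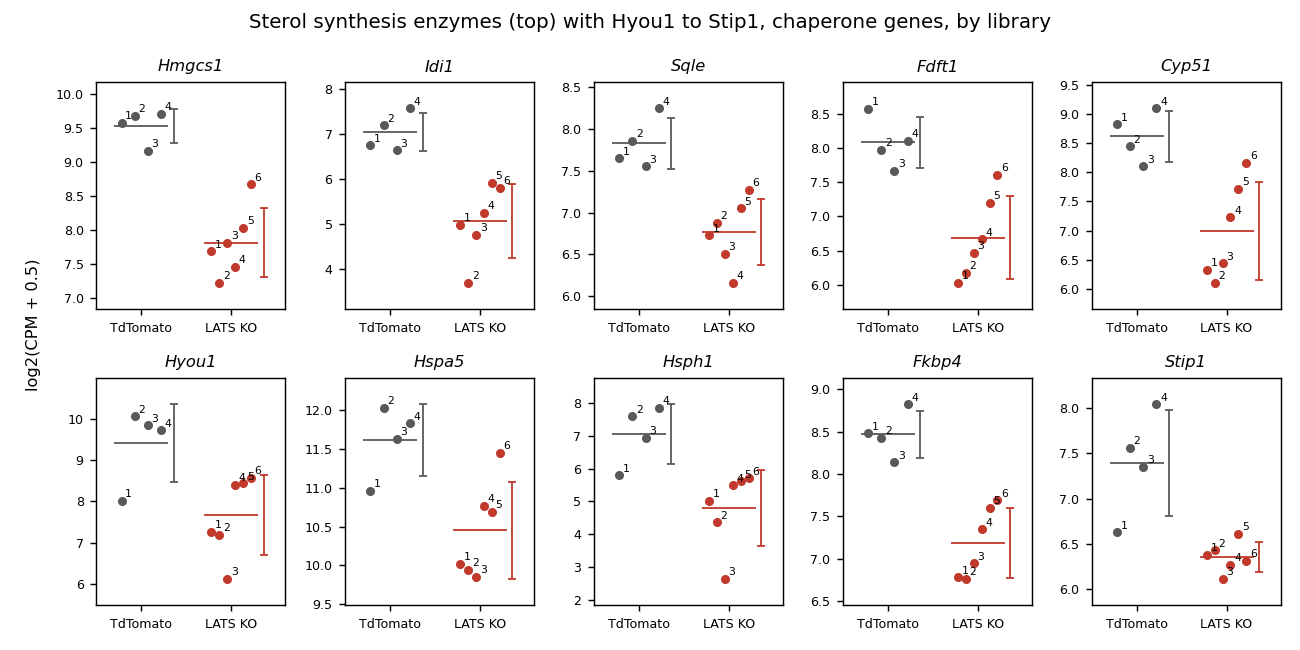
Levels as log2(CPM + 0.5) of 5 sterol synthesis enzymes (top row) and 5 chaperone genes (bottom row), with 1 numbered point per library, a line at the group mean and a bar of 1 SD. The red LATS KO points lie below all grey TdTomato points for Hmgcs1, Idi1, Sqle, Fdft1, Hsph1, Fkbp4 and Stip1 and overlap them for Cyp51, Hyou1 and Hspa5.

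Chaperone genes of the endoplasmic reticulum fell in part. All 20 tested genes of endoplasmic reticulum folding and the unfolded protein response had negative log2 fold changes, with a median of −0.88. Of these, 6 passed the test, 10 passed it in the 13 libraries and 4 in the 8 libraries. Hyou1, an HSP70-like chaperone, was at 258, 1064, 915 and 842 CPM in TdTomato 1 to 4, against 153, 146, 69.3, 335, 345 and 377 CPM in LATS KO 1 to 6. The value of TdTomato 1 lay inside the LATS KO range and the other 3 controls lay above it (−1.70 ± 0.45, adjusted p = 0.0253; 8 libraries −1.82, adjusted p = 0.0346). Pdia4, a disulfide isomerase, had the same arrangement, 284, 735, 613 and 601 and 202, 211, 154, 299.6, 292 and 413 CPM (−1.09 ± 0.29, adjusted p = 0.0268; 8 libraries −1.22, adjusted p = 0.0421). Hspa5, the main chaperone BiP, was at 1992, 4174, 3167 and 3648 CPM in the controls and 1036, 985, 926, 1741, 1649.9 and 2801 CPM in LATS KO (−1.09 ± 0.33, adjusted p = 0.0459; 8 libraries −1.19, adjusted p = 0.0962). Hsp90b1 (−0.98 ± 0.29), Dnajc3 (−1.01 ± 0.30) and Creld2 (−1.70 ± 0.51) were the other 3 that passed (adjusted p = 0.0431, 0.0414 and 0.0424). With 1 library left out the count was 0 to 11, fewest without TdTomato 2, TdTomato 3, TdTomato 4, LATS KO 1 or LATS KO 2, and calls ended for example for Hyou1 (TdTomato 2, 3 or 4, LATS KO 1 or 2, adjusted p = 0.0538 to 0.0847) and Hspa5 (TdTomato 2, 3 or 4, LATS KO 1, 2, 3, 4 or 5, Yap OE 1, 2, 3, 4 or 5, adjusted p = 0.0578 to 0.137). The log2 fold change of Creld2 was −2.30 without LATS KO 6. Hsp90b1, Dnajc3 and Creld2 did not pass in the 8 libraries (adjusted p = 0.112, 0.0684 and 0.112).

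Of cytosolic chaperones 3 genes are given, without a list count. Hsph1, an HSP110 exchange factor, was at 54.8, 193, 122 and 228 CPM in TdTomato 1 to 4, against 31.8, 20.1, 5.78, 44.3, 48.2 and 51.5 CPM in LATS KO 1 to 6, with every LATS KO library below every control (−2.15 ± 0.47, adjusted p = 0.0117; 8 libraries −2.24, adjusted p = 0.0263). It was among the 15 largest falls. Fkbp4 and Stip1, cochaperones of HSP90, were noticed after their values were seen: Fkbp4 was at 356, 343, 281 and 452 and 109.6, 108, 123, 162, 194 and 206 CPM (−1.25 ± 0.24, adjusted p = 0.00671). Stip1 was at 98.6, 188, 163 and 262 and 83.0, 85.7, 69.0, 76.7, 97.2 and 79.2 CPM (−1.12 ± 0.22, adjusted p = 0.00734), with LATS KO values within a narrow band. The 3 calls held in each fit with 1 library left out.

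The largest falls were in genes near 0 CPM in all 6 LATS KO libraries. Rnaset2b, one of a pair of nearly identical lysosomal ribonuclease genes whose reads cannot be assigned with certainty, was at 34.0, 26.4, 25.7 and 31.4 CPM in TdTomato and 0.108, 0.522, 0, 0.789, 1.62 and 0.421 CPM in LATS KO (−5.63 ± 0.67, adjusted p = 0.00158). Lrit1, a leucine-rich membrane protein known from photoreceptors, was at 15.3, 12.6, 13.8 and 6.99 and 0.271, 0.0921, 0, 0.219, 0.539 and 0.12 CPM (−5.83 ± 0.75, adjusted p = 0.00241). Cebpe, a transcription factor of granulocyte maturation, was below the level set for the largest falls (a mean of 5 CPM) and was singled out after its values were seen: 12.7, 7.34, 9.85 and 8.47 CPM in the controls and 0, 0.0307, 0, 0.0877, 0 and 0.0601 CPM in LATS KO (−7.93 ± 0.87, adjusted p = 8.58e-04). In these 3 genes no LATS KO library came near a control, and all 3 also passed in the 8 libraries (adjusted p = 0.0242, 0.0136 and 0.0103).

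Cebpe (mm10, 54710360 to 54712174) and Lrit1 (37054830 to 37064946) lie on chromosome 14, as does Lats2 (57689662 to 57758388). Of 434 tested genes of chromosome 14, 10 fell (2.3%), the highest share of any chromosome (lowest 0.253%), against 1% of 12574 tested genes with a position. The other 8, noticed after their values were seen, were Tmem260, Lrit2, Spryd7, Fdft1, Vwa8, Thrb, Dnajc3 and Ddhd1. On chromosome 10, which holds Lats1, 10 of 616 fell (1.62%). Chromosome 5, which holds neither Lats1 nor Lats2, had a higher share (15 of 820, 1.83%), and chromosomes 13 and 6 were close (1.48% and 1.47%). The labels give no strain or breeding for the 2 groups, and a difference of strain and a difference of Lats genotype cannot be told apart.

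Regulators and enzymes with moderate falls followed. Esr1, the oestrogen receptor of hepatocytes, was at 55.2, 53.018, 62.6 and 37.8 CPM in TdTomato 1 to 4, against 16.3, 10.8, 9.11, 15.9, 21.3 and 29.7 CPM in LATS KO 1 to 6 (−1.60 ± 0.31, adjusted p = 0.00721; 8 libraries −1.48, adjusted p = 0.0346). Thrb, the thyroid hormone receptor of the liver, was at 37.3, 85.2, 65.8 and 45.8 and 34.3, 19.6, 16.8, 37.0, 31.6 and 28.4 CPM (−1.07 ± 0.28, adjusted p = 0.0261; 8 libraries adjusted p = 0.0387). They were the 2 of 21 nuclear receptors that fell, neither with overlap, and 0 rose, with the same counts in the 8 libraries. Cry1, a repressor of the circadian clock, fell (from a range of 13.9 to 28.7 CPM to one of 5.00 to 11.4 CPM; −1.45 ± 0.36, adjusted p = 0.0201) and was the 1 of 19 clock genes that passed, though the time of day of collection is not given. Stat5b, the transcription factor of growth hormone signals, was lower in all 6 libraries (44.0 to 60.2 against 62.2 to 89.4 CPM; −0.56 ± 0.16, adjusted p = 0.0303).

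Ddc, which makes dopamine and serotonin from their amino acid precursors, was at 239, 262, 127 and 199.6 CPM in the controls and 55.5, 54.0, 17.8, 47.8, 66.5 and 112 CPM in LATS KO (−1.81 ± 0.39, adjusted p = 0.011). Serpine2, a protease inhibitor, differed in its order: 21.3, 19.2, 19.6, 8.68, 6.07 and 9.61 CPM in LATS KO 1 to 6, lowest in LATS KO 4 to 6, against 25.6, 49.1, 43.5 and 71.9 CPM (−1.76 ± 0.38, adjusted p = 0.011). Sh3pxd2a, an adaptor of invadopodia (−1.58 ± 0.32, adjusted p = 0.00903), Tmem260 (−1.57 ± 0.27, adjusted p = 0.00525), Spryd7 (−1.53 ± 0.31, adjusted p = 0.00903) and Mmab, an enzyme of cobalamin metabolism (−1.47 ± 0.37, adjusted p = 0.02), also fell without overlap. Gt(ROSA)26Sor, the transcript of the locus into which many mouse transgenes are inserted, was at 29.9, 10.7, 11.1 and 13.6 CPM in TdTomato and 4.49, 4.39, 0, 3.42, 2.83 and 4.33 CPM in LATS KO (−2.32 ± 0.72, adjusted p = 0.0493; 8 libraries −1.62, adjusted p = 0.0265). The labels do not say where a transgene lay in either group. Calls that ended without 1 library were those of Thrb (TdTomato 2 or 3, LATS KO 2, adjusted p = 0.0581 to 0.113), Cry1 (TdTomato 2, adjusted p = 0.0717), Stat5b (TdTomato 2, 3 or 4, LATS KO 1 or 2, adjusted p = 0.0581 to 0.102), Mmab (TdTomato 2 or 4, adjusted p = 0.0531 to 0.0708) and Gt(ROSA)26Sor (TdTomato 1, 2, 3 or 4, LATS KO 1, 2, 4, 5 or 6, Yap OE 1, 2, 3, 4 or 5, adjusted p = 0.0573 to 0.101).

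Most hepatocyte functions differed among the LATS KO libraries more than between the groups. Few members passed the test: 0 of 7 urea cycle genes, 1 of 33 amino acid catabolism genes (Tat, lower), 0 of 30 cytochrome P450s, 0 of 28 genes of fatty acid oxidation and ketogenesis, 0 of 16 uptake carriers, 0 of 22 coagulation genes and 0 of 19 apolipoprotein and lipoprotein assembly genes. Their log2 fold changes were nevertheless mostly negative: all 7 of the urea cycle, all 33 of amino acid catabolism, 21 of 22 of coagulation, 18 of 19 of the apolipoprotein list and 24 of 30 cytochrome P450s. Taken by library, the median difference of the amino acid catabolism genes from the control mean was −1.33, −2.30, −2.70, −0.12, −0.05 and −0.05 (log2(CPM + 0.5)) in LATS KO 1 to 6, and −0.26 to 0.19 among the controls. For uptake carriers it was −1.49, −2.49, −4.20, −0.16, 0.10 and 0.02. For cytochrome P450s it was −1.14, −2.19, −2.48, 0.29, 0.46 and 0.42. LATS KO 1 to 3 were thus low, and LATS KO 4 to 6 within or close to the control range.

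Single genes show the size of this spread. Otc, a urea cycle enzyme, was at 532, 695, 658 and 670.0 CPM in TdTomato 1 to 4, against 145, 31.8, 39.7, 560.5, 598 and 838 CPM in LATS KO 1 to 6 (log2 fold change −0.79 ± 0.70, adjusted p = 0.533). Cyp2e1, the ethanol-oxidising P450 of central hepatocytes, was at 735, 3406, 3594 and 2580.2 and 186, 40.6, 145, 2695, 4408 and 2869.8 CPM (−0.58 ± 0.99, adjusted p = 0.78). Slc10a1, the bile acid uptake carrier NTCP, was at 284, 626, 619.6 and 439.9 and 52.3, 11.3, 23.4, 583, 730.1 and 714 CPM (−0.48 ± 0.92, adjusted p = 0.807). In the 3 genes LATS KO 1 to 3 lay below every control, and LATS KO 4 to 6 overlapped the controls or lay above them. Cyp8b1, the sterol hydroxylase that sets the bile acid mix, was lower in all 6 libraries, 34.9, 24.3, 17.6, 153, 168 and 157 CPM against 209 to 438 CPM, without passing the test (−1.82 ± 0.58, adjusted p = 0.0562). Tat, which starts tyrosine breakdown, was at 1906, 3402, 3402 and 3272 CPM in TdTomato and 765, 602, 374, 1440.3, 1809 and 1737 CPM in LATS KO, without overlap (−1.42 ± 0.40, adjusted p = 0.0319), and its call ended without 1 library (TdTomato 2, 3 or 4, LATS KO 1 or 2, adjusted p = 0.0667 to 0.0852) and in the 8 libraries (adjusted p = 0.0684).

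Hepatocyte identity factors showed less of this spread in their list median, though not in every member. Hnf4a was at 633, 520.1, 343, 683, 647 and 383 CPM in LATS KO 1 to 6 against 291, 752, 1046 and 964 CPM in TdTomato 1 to 4 (−0.51 ± 0.32, adjusted p = 0.354). Cebpa was at 147, 183, 115, 693, 726 and 672 CPM against 574, 643, 639 and 555 CPM (−0.51 ± 0.46, adjusted p = 0.55), low in LATS KO 1 to 3. Of 21 transcription factors of hepatocytes, 0 passed. In the 8 libraries 1 of these, 1 of the uptake carriers and 1 of the apolipoprotein list were lower. The median differences by library were 0.03, −0.40, −0.52, 0.13, −0.04 and 0.21.

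**Figure D4:**
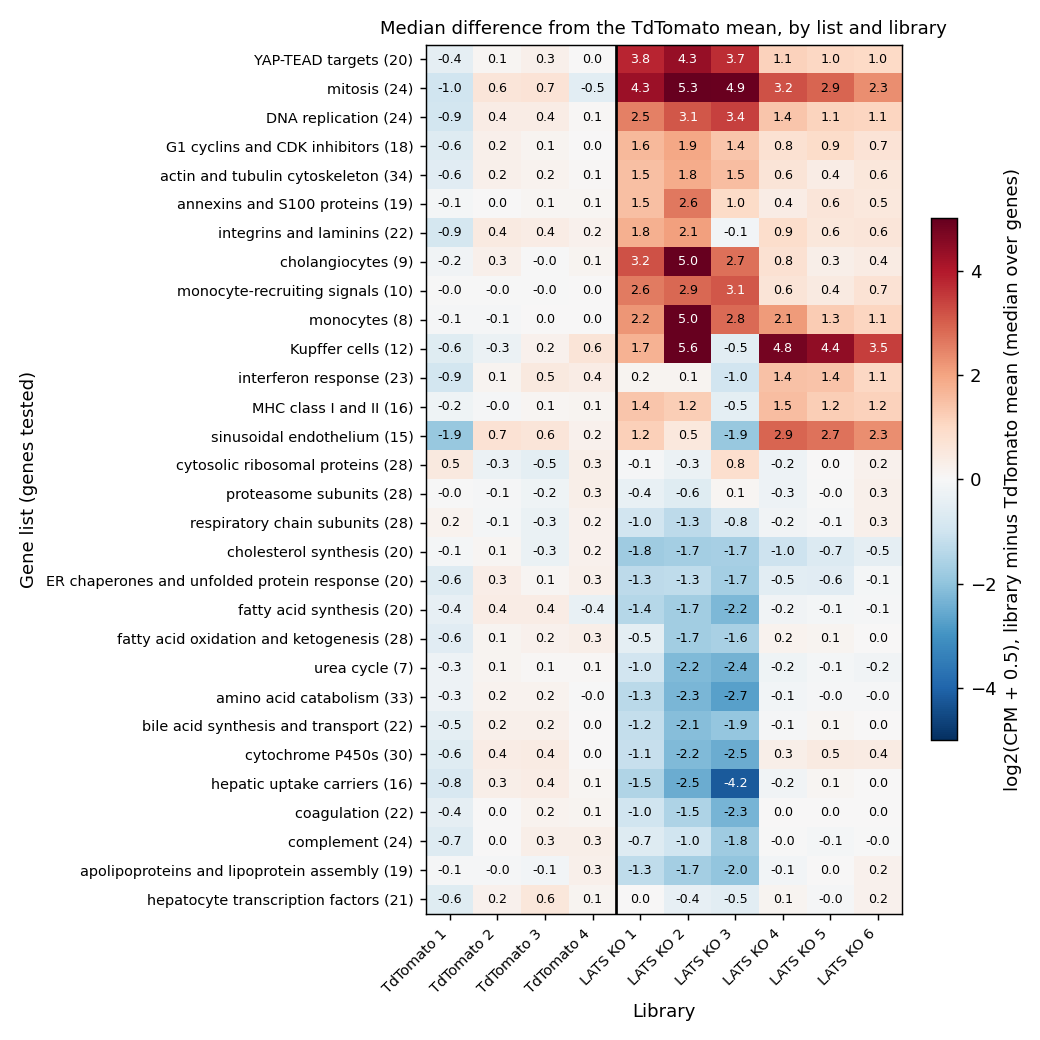
Each cell gives, for 1 gene list (rows, with the number of genes tested) and 1 library (columns), the median over genes of the difference in log2(CPM + 0.5) from the TdTomato mean; red is higher and blue lower. Hepatocyte function lists are blue in LATS KO 1 to 3 and near 0 in LATS KO 4 to 6, cholesterol synthesis is below 0 in all 6, and the sinusoidal endothelium row is reddest in LATS KO 4 to 6.

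In glycolysis 4 of 23 genes rose (3 in the 8 libraries; with 1 library left out 3 to 5, fewest without TdTomato 1, TdTomato 2, TdTomato 3, TdTomato 4 or LATS KO 2), where 10% of all tested genes did (5.07% in the 8 libraries). The 4 were isozymes that normal hepatocytes use little: Hk2 and Hk3, which are hexokinases, Pkm and Pfkp. Hk2, Hk3 and Pfkp were below 1 CPM in the controls, a class in which 39.7% of tested genes rose. The call of Pfkp ended without 1 library (TdTomato 1, 2, 3 or 4, LATS KO 2, adjusted p = 0.0501 to 0.1) and in the 8 libraries (adjusted p = 0.125). Pkm, muscle-type pyruvate kinase, was at 5.73, 1.82, 1.75 and 2.15 CPM in TdTomato 1 to 4, against 22.6, 246, 63.4, 43.2, 20.4 and 14.1 CPM in LATS KO 1 to 6 (log2 fold change 4.58 ± 0.83, adjusted p = 0.00572; 3.52 without LATS KO 2). Pklr, the liver isozyme of pyruvate kinase, had a log2 fold change of −0.26 ± 0.62 and did not pass (adjusted p = 0.852). Pkm and Hk3 are also expressed in macrophages. Of 12 Kupffer cell markers 10 rose (9 in the 8 libraries) and 1 had a negative log2 fold change (−1.39). Their sums were 399 to 631 CPM in the controls and 364, 1287, 227, 1109, 934 and 706 CPM in LATS KO 1 to 6. A sum follows its most abundant members. The median difference from the control mean was 1.75, 5.60, −0.52, 4.79, 4.44 and 3.47 (log2(CPM + 0.5)) in LATS KO 1 to 6. Among the controls it was −0.59 to 0.65. The part of Kupffer cells in these rises was not tested. Among serine and one-carbon genes, Phgdh, the first enzyme of serine synthesis, had a pooled CPM ratio of 599 (95% exact interval 166 to 4952), with 14.988, 32.7, 79.9, 2.15, 0.135 and 0.781 CPM in LATS KO 1 to 6. Mthfd1l, a mitochondrial one-carbon enzyme, rose by 4.49 ± 0.96 (adjusted p = 0.0111), and Shmt1, its cytosolic neighbour in the pathway, fell (−0.85 ± 0.25, adjusted p = 0.0412), a call lost without 1 library (TdTomato 1, 2, 3 or 4, LATS KO 1, 2, 3 or 4, Yap OE 1, 2, 3, 4 or 5, adjusted p = 0.05 to 0.106). Phgdh and Shmt1 did not pass in the 8 libraries (adjusted p = 0.0709 and 0.214).

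Cd36, a fatty acid transporter, rose in every LATS KO library. It was at 8.52, 13.4, 9.85 and 7.09 CPM in TdTomato 1 to 4, against 430.5, 389.8, 359, 99.9, 82.3 and 63.1 CPM in LATS KO 1 to 6, and even the lowest LATS KO library was far above the highest control (4.61 ± 0.61, adjusted p = 0.0027; 8 libraries 4.40, adjusted p = 0.0338). Lpl, lipoprotein lipase, was at 8.75, 6.01, 2.38 and 4.31 and 21.7, 93.5, 134, 32.8, 21.2 and 22.953 CPM, also without overlap (3.34 ± 0.60, adjusted p = 0.0057; 8 libraries 3.18, adjusted p = 0.0387). Acly, which makes acetyl-CoA for lipid synthesis, fell (from a range of 374 to 759 CPM to one of 138 to 359.8 CPM; −1.20 ± 0.33, adjusted p = 0.0314) and was the 1 of 20 fatty acid synthesis genes that passed. Fasn, fatty acid synthase, had a log2 fold change of −0.997 ± 0.51 (adjusted p = 0.244). The call of Acly ended without 1 library (TdTomato 2 or 3, LATS KO 1 or 2, adjusted p = 0.0645 to 0.106). Acly did not pass in the 8 libraries (adjusted p = 0.0876).

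Signals and carriers of iron shifted in both directions. Bmp6, the endothelial ligand that sets hepcidin, was at 0, 0.772, 0.635 and 1.01 CPM in TdTomato 1 to 4, against 12.3, 22.8, 12.1, 4.69, 4.65 and 3.85 CPM in LATS KO 1 to 6 (log2 fold change 4.02 ± 0.79, adjusted p = 0.00764; 8 libraries 3.57, adjusted p = 0.039). Id1, a target gene of BMP signals, was at 0, 1.32, 0.556 and 0.575 and 55.6, 49.983, 116, 9.30, 9.85 and 5.41 CPM (6.00 ± 1.06, adjusted p = 0.00549), and Hamp, which encodes hepcidin, at 368, 409.8, 399 and 556 and 579, 727, 1359, 631, 715 and 1020.3 CPM (0.95 ± 0.27, adjusted p = 0.0327). Tfrc, the transferrin receptor, fell from 77.9, 59.4, 76.3 and 56.3 CPM to 39.1, 27.9, 30.1, 24.9, 33.0 and 46.8 CPM (−1.004 ± 0.21, adjusted p = 0.00903; 8 libraries −0.93, adjusted p = 0.0443). None of the 4 overlapped between the groups. They were 4 of 18 iron genes that passed, 3 up and 1 down (2 and 2 in the 8 libraries). Id1 had a log2 fold change of 6.69 without TdTomato 2 and 5.35 without LATS KO 3. The call of Hamp ended without 1 library (TdTomato 1, 2, 3 or 4, adjusted p = 0.0507 to 0.0933). Hamp did not pass in the 8 libraries (adjusted p = 0.191).

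Immune and endothelial transcripts rose in part, and several had another order of libraries than the YAP targets. The complement list had 4 of 24 genes higher (4 in the 8 libraries), the 3 chains of C1q and properdin (Cfp), which macrophages make, and the other 20 did not pass. C1qa was at 0, 0.166, 0.635 and 1.72 CPM in TdTomato 1 to 4, against 8.495, 149, 33.4, 58.9, 52.3 and 28.4 CPM in LATS KO 1 to 6, highest in LATS KO 2 (6.37 ± 1.03, adjusted p = 0.00471; 7.70 without TdTomato 4 and 5.78 without LATS KO 2). Clec4f, a Kupffer cell receptor, was at 8.75, 1.38, 3.02 and 4.60 and 6.98, 95.5, 8.67, 147, 126 and 53.4 CPM, highest in LATS KO 4 and 5, with LATS KO 1 and 3 inside the control range (4.04 ± 0.87, adjusted p = 0.0112; 8 libraries 4.81, adjusted p = 0.0373). H2-Q4, a class I histocompatibility gene of a family with near-identical copies, gave an even rise, somewhat higher in LATS KO 1 to 3: 20.8, 21.4, 27.2 and 22.4 CPM in the controls and 69.5, 74.3, 78.1, 58.4, 55.6 and 58.3 CPM in LATS KO (1.52 ± 0.17, adjusted p = 8.58e-04; 8 libraries 1.40, adjusted p = 0.0259). Summed markers of the sinusoidal endothelium were 42.2 to 101 CPM in the controls and 158, 178, 43.0, 505, 438 and 349 CPM in LATS KO 1 to 6. Of 15 such markers 3 rose over all 15 libraries of the series, 11 in the 13 libraries without TdTomato 1 and LATS KO 3, and 5 in the 8 libraries (0 to 9, fewest without TdTomato 2, TdTomato 3 or TdTomato 4, with 1 library left out).

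The LATS KO libraries also differed in measures of library quality. Rn45s, the ribosomal RNA precursor, was at 36314, 4702, 3661 and 9269.5 CPM in TdTomato 1 to 4, against 1760.0, 2633, 14622, 48068, 192360.0 and 104850.0 CPM in LATS KO 1 to 6. Mapped reads in no gene made up 7.05%, 6.57%, 17.96%, 17.2%, 25.8% and 20.8% in LATS KO 1 to 6, against 6.57% to 14.3% in the controls. LATS KO 4 to 6 were high in both. On the first principal component of the 10 libraries, with 43.2% of the variance, LATS KO 1 to 3 lay on one side, and LATS KO 4 to 6 lay between them and the controls. The second, with 33.1%, set TdTomato 1 and LATS KO 3 apart. Leaving out Rn45s, an alternative chosen after seeing the data, kept all 100 calls among the genes named in the text. The part of library quality in the difference between LATS KO 1 to 3 and LATS KO 4 to 6 was not tested.

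Some housekeeping groups showed no member past the threshold. Cytosolic ribosomal proteins had 0 of 28 called and a median log2 fold change of 0.07, with 20 positive and 8 negative. Proteasome subunits had 0 of 28 and a median of −0.14. Respiratory chain subunits had 0 of 28 as well, but all 28 were negative, with a median of −0.40 and median differences by library of −0.97, −1.31, −0.78, −0.20, −0.07 and 0.27 in LATS KO 1 to 6. A miss of the threshold does not show that these genes were equal, since the fits pooled a coefficient of biological variation of 0.62.

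**Figure D5:**
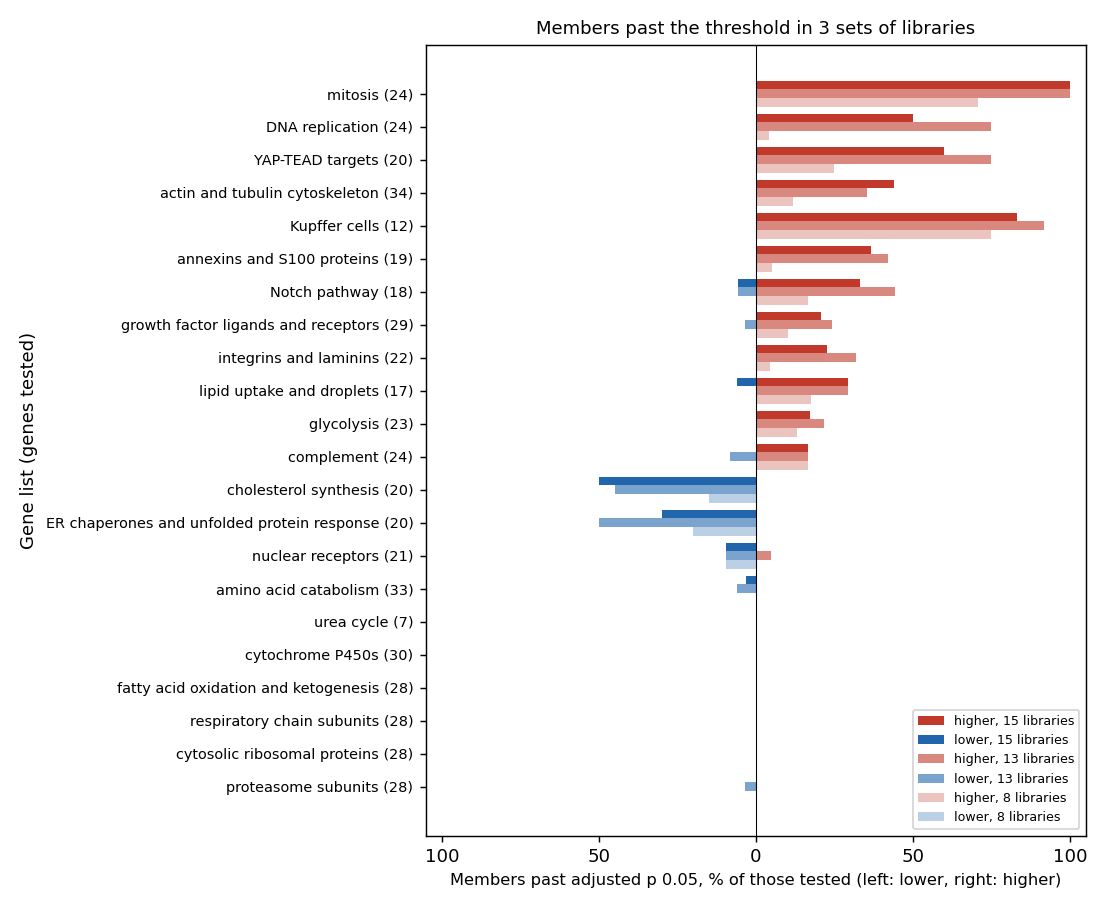
For 22 gene lists (rows, with the number of genes tested), bars give the share of members past the threshold, higher to the right and lower to the left, in the 15, 13 and 8 libraries (dark to light). Among these lists mitosis and Kupffer cells extend farthest to the right and cholesterol synthesis and endoplasmic reticulum chaperones farthest to the left, and most bars shorten in the 8 libraries.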

How the data were processed

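Liver RNA was sequenced after poly(A) selection with a directional kit, per the labels' protocols. FastQC, Trimmomatic, STAR and the build mm10 are named in the submitters' processing notes, with versions not given in the sources used here. The deposited files hold the authors' read counts per gene from STAR, not normalized. The counts of the reverse strand column were used, for 24411 genes. The LATS KO and TdTomato libraries held 6166680 to 27508698 such counts. Unmapped, multiply mapped, ambiguous and no-gene rows stayed out of library sizes and tests. The no-gene row was 6.57% to 25.8% of mapped reads.

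Genes were filtered with filterByExpr, scaled by TMM and tested with edgeR 4.0.16 (R 4.3.3) quasi-likelihood F tests, LATS KO against TdTomato, with 1 model over the 15 libraries. Adjusted p-values (Benjamini-Hochberg) cover the 13055 genes tested, and a gene passed at 0.05. Fold changes without a p are log2 from that fit, with the SE. Genes with no control read are given as bounds from a floor of 3 counts over the control group. Alternatives were other scalings, filters, strand columns and sets of libraries, DESeq2 1.42.0, limma 3.58.1 voom, a replicate block, and each library left out. The steps were tested on simulated data. Groups came from the titles. The members and the 65 gene lists (1184 symbols) were chosen with earlier results of these data known.

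Named genes were Lats1, Lats2, Yap1 and Wwtr1; up to 3 members per list with the smallest adjusted p, or the most abundant where none passed; the 12 largest rises and 15 largest falls with a mean of at least 5 CPM and no overlap; the 10 most abundant genes; and other list members that show the spread within a list. Some genes under this rule are not reported here. Others are said to be chosen after their values were seen. The CACCCCAC search was also added after values were seen. Promoters came from RefSeq (GRCm38.p6), where 9979 of the tested genes matched by symbol.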

Additional observations from a re-analysis of the deposited data

Results flagged for a closer look

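In each group the library farthest from the others was set against Dixon's 95% limit, which chance passes in about 1 in 20 groups. Of 244 groups of values (1 gene in TdTomato or LATS KO), 20 passed, where 1 in 20 would be 12.2. TdTomato 1 stood apart in 9 of these. It was low for Cyr61 (0 CPM), Dnajc3 (293 CPM), Egfr (311 CPM), Hyou1 (258 CPM), Lats1 (0 CPM), Lats2 (0 CPM) and Tat (1906 CPM), and high for Krt18 (385 CPM) and Pkm (5.73 CPM). LATS KO 3 was low for Gt(ROSA)26Sor (0 CPM) and Lats1 (0 CPM) and high for Ddhd1 (17.8 CPM). Reads near 0 set other TdTomato libraries apart: Ankrd1 in TdTomato 2 (high, 0.0552 CPM), Erbb2 in TdTomato 3 (high, 0.0794 CPM), Gpc3 in TdTomato 4 (high, 0.0479 CPM), Pmaip1 in TdTomato 2 (high, 0.0552 CPM), Slc25a24 in TdTomato 2 (high, 0.11 CPM) and Tgfb2 in TdTomato 3 (high, 0.238 CPM). The others were Actb in TdTomato 4 (low, 635 CPM) and Lrit2 in LATS KO 4 (high, 0.132 CPM).

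TdTomato 1 and LATS KO 3 were apart from their groups in genes above 0 (8501 and 9710) and in the share of reads unmapped (78.5% and 89.9%). Mapped reads in no gene, a measure outside the comparison, exceeded the highest control (14.3%) in LATS KO 3, 4, 5 and 6, at 17.96%, 17.2%, 25.8% and 20.8%. Reads of this kind were not analysed further.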

How the results depend on the processing

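The counts of 1311 higher and 127 lower genes varied in size, and higher outnumbered lower in each alternative run except edgeR on the 10 libraries alone. DESeq2 over the 15 libraries called 2535 and 359, and limma voom with quality weights 2109 and 1395. A minimum of 1 CPM in 4 of the 10 libraries left 759 higher. With the 10 libraries compared alone, edgeR called 0 higher and 1 lower, with 2013 genes at an unadjusted p under 0.05, where the spread was larger (coefficient of biological variation 0.728 against 0.622). On these 10 libraries limma voom called 1454 lower. Without TdTomato 1 and LATS KO 3, 429 genes were lower with Yap OE kept (13 libraries) and 622 were higher without it (8 libraries). With 1 library left out, 554 to 1625 genes were higher and 34 to 189 lower. A replicate block left 582 higher and 158 lower. Same-numbered TdTomato and LATS KO libraries correlated at −0.16, 0.07, −0.10 and −0.04 in their deviations. The pairs numbered 1 and 3 each hold a poorly mapped library, so these values do not settle whether the numbers pair libraries. Other scalings shifted the median log2 fold change of all tested genes from 0.13 to 0.21 (RLE), 0.18 (upper quartile) and 0.46 (total counts). Of the genes named in the text, 100 passed the test, and 63 of them passed in every fit with 1 library left out. The causes of these differences were not tested. For genes near 0 in the controls, the depth limits the fold change to a bound.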

Other observations

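The values here were chosen after they were seen and carry no explanation. Moxd1, a monooxygenase-like protein, split the control libraries: it was at 193, 0.717, 0.397 and 95.7 CPM in TdTomato 1 to 4, against 0.108, 0.276, 0, 0, 0.742 and 1.32 CPM in LATS KO 1 to 6 (log2 fold change −7.45 ± 1.72, adjusted p = 0.0141, edgeR's quasi-likelihood test with Benjamini-Hochberg adjustment; 8 libraries adjusted p = 0.0706). TdTomato 2 and 3 were as low as LATS KO 5 and 6. Without TdTomato 1 its log2 fold change was −6.29, and without LATS KO 6 it was −8.27. Mup20, a major urinary protein from a family of near-identical genes, was also higher in TdTomato 1 and 4, with 42273, 14260.0, 9713 and 28024 CPM in the controls, against 5229.9, 2352, 2972, 7340.2, 7676 and 12558 CPM in LATS KO (−1.89 ± 0.48, adjusted p = 0.0205). That call ended without 1 library (TdTomato 1 or 4, adjusted p = 0.0596 to 0.0718) and in the 8 libraries (adjusted p = 0.174). Mmd2, a membrane protein of the progestin receptor family, was at 16.9, 5.96, 6.12 and 8.19 CPM in the controls, against 1.73, 0.307, 0, 0.965, 1.15 and 0.901 CPM in LATS KO, without overlap (−3.44 ± 0.73, adjusted p = 0.0109; 8 libraries −2.79, adjusted p = 0.0315). Msln, mesothelin, was listed at 0 in all controls and at 1.30, 32.0 and 24.4 CPM in LATS KO 1 to 3, and at 0.0438, 0 and 0 CPM in LATS KO 4 to 6. It did not enter the test.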
